A study of Mus musculus with 6 samples.

Results

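The genes described are 36 enzymes and regulators of fatty acid and cholesterol synthesis, taken from a list of gene symbols. They form a lipogenic branch of 16 genes and a sterol branch of 20. Of the 36, 35 were measured by transcript clusters annotated with exactly 1 gene symbol, 16 lipogenic and 19 sterol, among 16583 genes in all. Acat2, an acetoacetyl-CoA thiolase of the sterol branch, was not analysed here.

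RNA came from Neuro2a, an established line of mouse neuroblastoma cells with neuronal features. Of 6 samples, each on 1 Affymetrix Mouse Gene 1.0 ST array, 3 were of cells that received an empty vector and 3 of cells that received vectors for microRNA-based RNA interference against USF1 and USF2. Vectors were introduced by lipofection, and the labels do not say what share of cells took them up, whether cells were selected, or how long after transfection RNA was taken. The labels number 3 biological replicates in each group but do not state that cultures were separate, and p-values here reflect only the scatter of these samples, part of which may be technical. All cells were the same line in the same serum-containing medium, and no lipid was depleted or added according to the labels. In such bulk samples, fewer cells expressing a gene and less of its RNA per cell cannot be told apart.

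USF1 and USF2 are transcription factors that bind E-boxes, DNA sites of the form CACGTG and close variants. In liver and fat, USF proteins are known to bind the promoter of Fasn, which encodes fatty acid synthase, and to take part in its induction by insulin together with SREBP factors. SREBP factors are membrane-bound regulators that Scap carries out of the endoplasmic reticulum when sterols are scarce, and that Insig proteins hold back when sterols are plentiful. They activate most genes of both branches, the sterol branch mainly through one family member and the lipogenic branch through another. Neuronal cells make their own cholesterol and much of their membrane fatty acid, so both branches are active in them. The comparison of knockdown with empty vector asks whether these genes lie downstream of the USF factors in Neuro2a, and whether the lipogenic genes, headed by Fasn, differ from the sterol genes.

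Promoter windows were searched for CACGTG, the canonical form of the site that the knocked-down factors bind. Close variants, and sites outside the windows, were not searched, so a gene without a match may still carry a site. RefSeq promoter windows on GRCm38.p6, running from 250 bases before to 50 after a gene's start, were found for 28 of the 35 measured genes, with 35 windows in all because 6 genes have several starts. Scd1, Scd2, Fads1, Fdps, Fdft1, Sqle and Stard4 had no window and were not searched. The canonical E-box CACGTG, which reads the same on both strands, lay in 7 of these 35 windows (20%), against 7.15% of all 32851 windows in the table, and belonged to 6 genes, with 1 site of Scap shared by 2 overlapping windows. Of the genes with a window, 1 of 13 lipogenic and 5 of 15 sterol genes carried it. The stretches below show these 6 sites, 30 bases each, 5′ to 3′ on the gene's strand, with the E-box in capitals. They are from chr9:77917192-77917221 (plus strand) for Elovl5, chr7:143823223-143823252 (plus) for Dhcr7, chr1:169969331-169969360 (minus) for Hsd17b7, chr5:28071299-28071328 (plus) for Insig1, chr9:42264381-42264410 (minus) for Sc5d and chr9:110333304-110333333 (plus) for Scap.
Elovl5: actgccccgagaCACGTGaaccacaggaga
Dhcr7: cgctgtgatgaaCACGTGgcaaaaagcagc
Hsd17b7: ggacccttgtgtCACGTGgctccgcccctc
Insig1: gctgggtgaggtCACGTGgctccggtggca
Sc5d: ctacgcggcgacCACGTGaccgccgcgacc
Scap: cgccgccgggagCACGTGtggagggcggcg
The Scap E-box begins 40 bases before one of its 2 annotated starts, that of Sc5d 98 and that of Insig1 101 bases before the start, and the other 3 lie further away.

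From each branch 1 gene is shown at greater length. Fasn is the gene for which a USF effect is best known, and Hmgcs1 had the smallest p of the sterol branch. These 2 genes were not tested against each other. The window of Fasn held no CACGTG, but close variants of the E-box and sites further from the start were not searched. Its last 100 bases before the start, chr11:120824548-120824647 on the minus strand, held 3 matches to CCAAT, the box bound by NF-Y, a factor that acts beside SREBP. The capitals mark them, and 2 of them overlap on opposite strands. For Hmgcs1, the last 150 bases before the start, chr13:119690201-119690350 on the plus strand, held a match to CACNCCAC, the core of the classic sterol response element, and 1 CCAAT box, both in capitals.
Fasn: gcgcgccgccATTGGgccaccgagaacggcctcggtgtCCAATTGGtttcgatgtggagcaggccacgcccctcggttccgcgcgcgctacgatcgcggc
Hmgcs1: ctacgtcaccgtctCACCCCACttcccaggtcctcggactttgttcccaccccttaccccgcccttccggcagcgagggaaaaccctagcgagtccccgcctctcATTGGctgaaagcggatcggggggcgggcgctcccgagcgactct
Searched on both strands, CCAAT lay in 23 of the 35 windows (65.7%), against 37.4% of all windows in the table. Of the genes, 9 of 13 lipogenic and 14 of 15 sterol genes had it. The CACNCCAC core lay in 3 of the 35 windows (8.57%, against 6.24% of all), those of Gpam, Hmgcs1 and Insig1. A match describes the letters in this window, and binding was not measured on these arrays.

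Each value below is a log2 signal relative to that gene's own median over the 6 arrays, so arrays can be compared for a gene but genes cannot be ranked by level. Both knockdown targets were lower on every knockdown array than on any empty vector array. Usf1 stood at 0.180, 0.322 and 0.429 on empty vector arrays 1, 2 and 3 and at -0.281, -0.180 and -0.262 on knockdown arrays 1, 2 and 3. Its change was 0.682-fold (95% interval 0.612 to 0.761; limma adjusted p = 0.320 over all genes). Usf2 stood at 0.118, 0.276 and 0.266 and at -0.220, -0.132 and -0.118, a change of 0.770-fold (0.702 to 0.845; limma adjusted p = 0.348). The exact two-sided permutation p was 0.1 for each, the smallest that 3 against 3 arrays can give.

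The arrays differed in spread and in where brighter and dimmer genes stood on them. The standard deviation over all clusters was 0.159 on knockdown array 2 and 0.0531 to 0.0780 on the other 5. The rounding of the deposited numbers places each gene in a brighter class (log2 signal of 8 to 16 before it was centred) or a dimmer one (4 to 8). On knockdown array 2 the median gene of the brighter class stood at -0.026 and that of the dimmer class at 0.080, against -0.0006 to 0.0055 and -0.026 to 0.0022 on the other arrays. Of the 35 lipid genes, 34 lay in the brighter class and 1, Thrsp, in the dimmer one, so their reference here is the brighter class. Of the sympathetic neuroblast markers, 8 of 10 measured lay in the brighter class, against 7299 of all 16583 genes. The other 2, Th and Dbh, lay in the dimmer class. None of the 8 glial, 7 fibroblast, 4 macrophage and blood, and 5 hepatocyte and adipocyte markers measured lay there. Since the values are centred, none can be read as absent. The medians of these 4 lists were 0.160, 0.247, 0.068 and 0.215 above the empty vector mean on knockdown array 2. The same medians were 0.011, 0.031, 0.052 and -0.034 for knockdown array 1, and 0.029, -0.110, 0.0002 and -0.011 for knockdown array 3. For the dimmer class as a whole the same medians were 0.087, -0.0068 and -0.035 on knockdown arrays 2, 1 and 3. For 228 olfactory receptors, 221 of them in the dimmer class, they were 0.157, 0.0079 and -0.065. The part of the 4 marker lists in the values of the lipid genes was not tested.

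None of the 35 lipid synthesis genes passed an adjusted p of 0.05 in limma, against 1 of all 16583 genes (0.00603%). At an unadjusted p under 0.05 limma counted 2 of the 35 (5.71%), against 4.25% of all genes and 5.00% of the brighter class. Both were lower, a direction taken by 2.65% of all genes at that p. The changes lay between 0.907-fold (Lpin1) and 1.08-fold (Thrsp), and 29 of the 35 lay within 5% of 1-fold. The 95% intervals of all 35 lay between -0.249 and 0.270 on the log2 scale, and 33 of them held 0. The share of members at this p was thus close to the background. Standard errors of the change had a median of 0.046 for these genes and 0.056 over all genes.

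**Figure D1:**
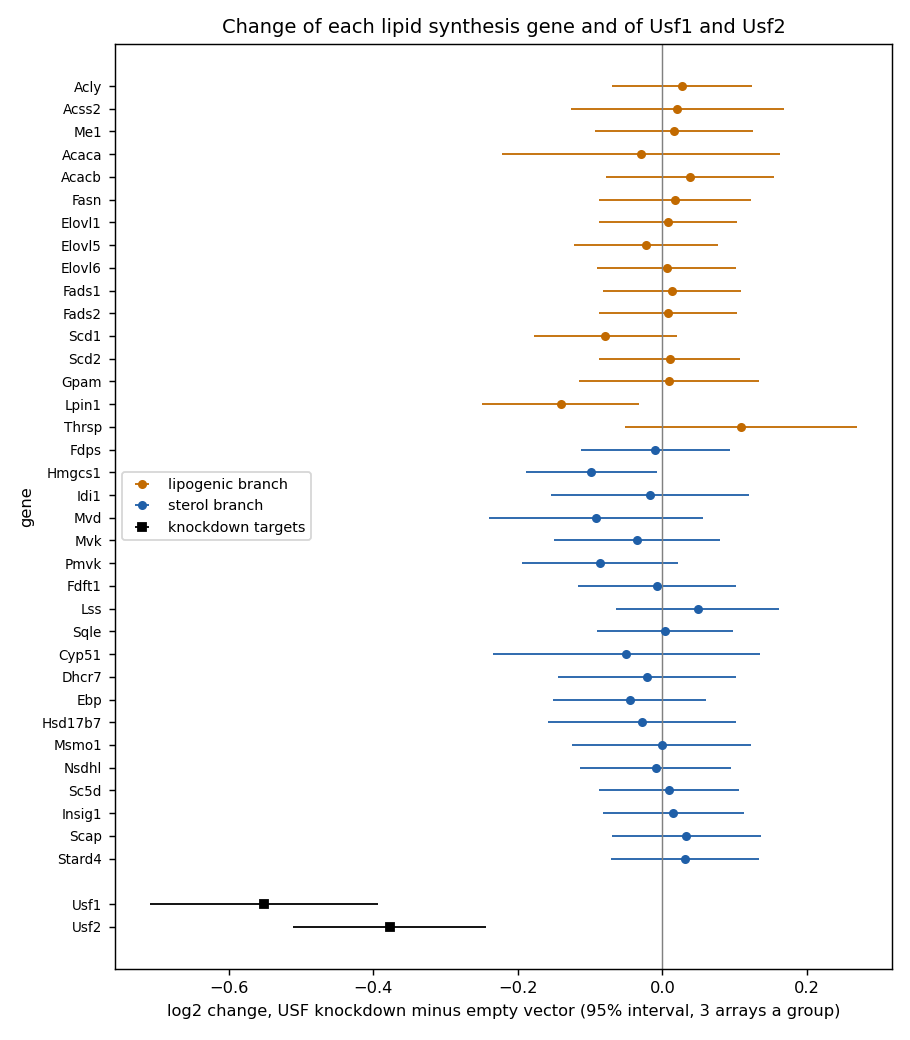
Log2 change (x axis) of each lipid synthesis gene (y axis) between 3 knockdown and 3 empty vector arrays, with 95% limma intervals; orange is the lipogenic branch, blue the sterol branch, and black squares are the knockdown targets. The lipid genes lie between -0.141 and 0.109, while Usf1 and Usf2 lie at -0.552 and -0.377, and only the intervals of Lpin1 and Hmgcs1 among the lipid genes leave out 0.

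Fasn, which builds palmitate from malonyl-CoA, was the gene for which a USF effect is best known. It stood at 0.0014, -0.081 and 0.024 on empty vector arrays 1, 2 and 3 and at -0.020, 0.019 and -0.0014 on knockdown arrays 1, 2 and 3. The groups overlapped, with the lowest value of all 6 on empty vector array 2. The empty vector mean was -0.018 ± 0.055 (SD, n = 3) and the knockdown mean -0.00072 ± 0.019 (SD, n = 3). The change was 0.018 ± 0.045 (SE), or 1.01-fold, with a 95% interval of 0.941-fold to 1.09-fold (limma adjusted p = 0.996). In this fit the interval left out reductions below 0.941-fold, with Usf1 at 0.682-fold and Usf2 at 0.770-fold. How Fasn responds to a deeper loss of the USF factors was not tested. The sign of the Fasn change turned without empty vector array 2, where it was -0.014.

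The 2 acetyl-CoA carboxylases, which make the malonyl-CoA that Fasn uses, also overlapped between groups. Acaca, the cytosolic form, varied widely within each group, at 0.162, -0.092 and 0.012 with empty vector and at -0.012, -0.122 and 0.127 with knockdown, and the groups overlapped. Its change of -0.030 ± 0.083 (SE) had the widest error of the 35 genes and turned positive when empty vector array 1 (0.037) or knockdown array 2 (0.030) was left out. The 2 clusters of Acaca gave -0.060 and 0.00033. Acacb, whose malonyl-CoA restrains fatty acid import into mitochondria, stood at 0.00043, 0.016 and -0.038 with empty vector and at -0.00043, 0.115 and -0.021 with knockdown. Knockdown array 2 alone lay above the empty vector arrays, and the change of 0.039 ± 0.050 (SE) was -0.0034 without it.

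Enzymes that supply the lipogenic pathway had changes near 0. Acly, which releases acetyl-CoA from citrate, stood at -0.018, 0.0047 and -0.0047 with empty vector and at -0.023, 0.026 and 0.059 with knockdown, a change of 0.027 ± 0.042 (SE). Knockdown arrays lay on both sides of the empty vector values. Acss2, which makes acetyl-CoA from acetate, ran from -0.102 on knockdown array 1 to 0.116 on knockdown array 3, with a change of 0.021 ± 0.064 (SE). Me1, the malic enzyme that supplies NADPH, had 0.016 ± 0.047 (SE), and its 2 clusters gave 0.033 and 0.00033.

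Among the 7 enzymes that elongate and desaturate fatty acids, the groups of Scd1 alone did not overlap. That is 14.3% of them, close to the 14.1% without overlap in the brighter class. Scd1, which puts the first double bond into stearate, stood at 0.0035, 0.038 and 0.047 on empty vector arrays 1, 2 and 3 and at -0.068, -0.077 and -0.0035 on knockdown arrays 1, 2 and 3. The gap between empty vector array 1 and knockdown array 3 was small. Its change was -0.079 ± 0.043 (SE), or 0.947-fold (0.884 to 1.01; limma adjusted p = 0.996). Its close paralog Scd2, the main form in mouse brain, had 0.010 ± 0.042 (SE). Whether the 2 desaturases differed was not tested. The elongases Elovl1, Elovl5 and Elovl6 had changes of 0.0078, -0.023 and 0.0061, and Fads1 and Fads2, which desaturate polyunsaturated fatty acids, 0.014 and 0.0078. The standard errors of these 5 lay between 0.041 and 0.043, so each change was under 1 standard error. Elovl5, the lipogenic gene with a CACGTG in its promoter window shown above, stood at 0.0093, -0.0093 and 0.064 with empty vector and at 0.032, -0.012 and -0.025 with knockdown, with overlapping groups.

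Lpin1 had the smallest p of all 35 genes. It encodes lipin 1, a phosphatidate phosphatase that makes the diacylglycerol used for triglyceride and phospholipid synthesis and also acts with nuclear factors. Lpin1 (cluster 10399478) stood at 0.037, 0.072 and 0.083 on empty vector arrays 1, 2 and 3 and at -0.045, -0.147 and -0.037 on knockdown arrays 1, 2 and 3. The groups did not overlap, and knockdown array 2 was the lowest. The empty vector mean was 0.064 ± 0.024 (SD, n = 3) and the knockdown mean -0.077 ± 0.061 (SD, n = 3). The change was -0.141 ± 0.047 (SE), or 0.907-fold (95% interval 0.841 to 0.978), with a limma p of 0.0177 and an adjusted p of 0.996. By p it ranked 253 among the 16583 genes. Without knockdown array 2 the change was -0.105. Gpam, which starts glycerolipid assembly by acylating glycerol phosphate, had 0.0092 ± 0.054 (SE), with knockdown array 2 at -0.091 and knockdown array 3 at 0.090.

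Thrsp, a small nuclear protein that promotes lipogenesis in liver and fat, had the largest positive change and the only dim signal. It stood at -0.0079, -0.058 and 0.0079 with empty vector and at 0.108, 0.215 and -0.055 with knockdown, a change of 0.109 ± 0.069 (SE; limma adjusted p = 0.996). Knockdown arrays 1 and 2 lay above all empty vector arrays and knockdown array 3 did not. Its change was 0.046 without knockdown array 2 and 0.181 without knockdown array 3. On knockdown array 2 the dimmer class as a whole was at 0.080.

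**Figure D2:**
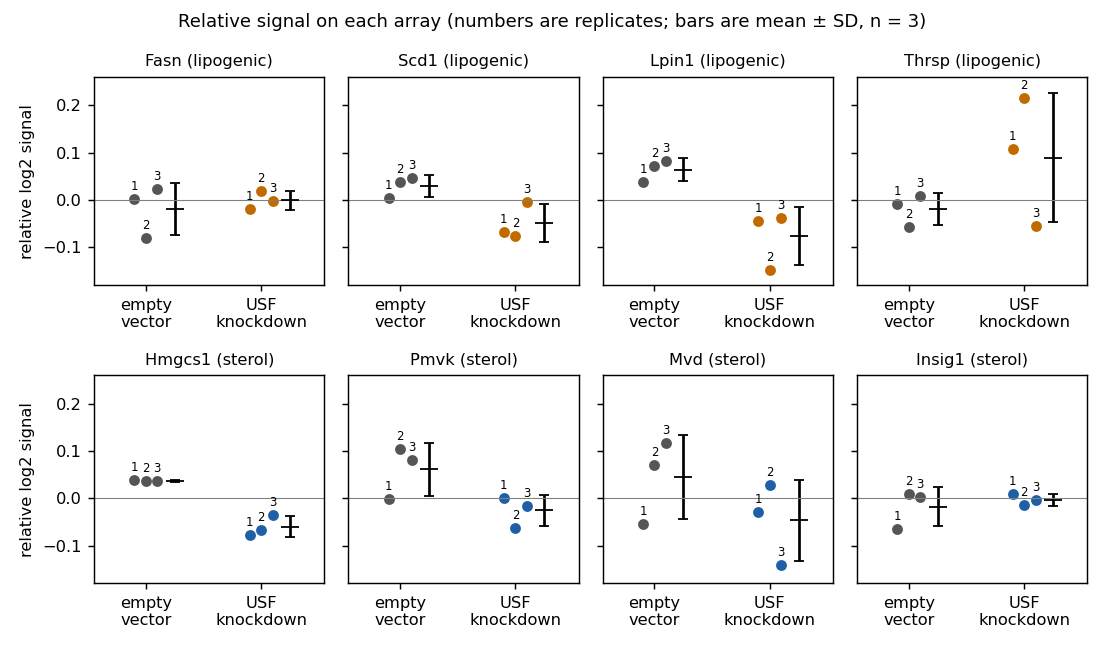
Relative log2 signal (y axis) of 8 genes on each array, with empty vector in grey and knockdown in orange (lipogenic) or blue (sterol), small numbers giving the replicate and bars the mean ± SD of 3 arrays. The groups are separate for Scd1, Lpin1 and Hmgcs1 and overlap for Fasn, Thrsp, Pmvk, Mvd and Insig1.

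In the sterol branch, the enzymes that build mevalonate and turn it into isoprenoids all had changes below 0. Of the 6 measured, 6 were lower, with a median of -0.061, against 13 of 19 sterol genes and 59.4% of the brighter class, whose median was -0.012. Set against the empty vector mean, knockdown arrays 1, 2 and 3 gave medians of -0.042, -0.070 and -0.064 for them. Of the 6, 1 (16.7%) was at an unadjusted p under 0.05 in limma, against 4.25% of all genes and 5.00% of the brighter class. With so few genes, that share cannot be read as above or below the background. None passed adjustment. The count of 6 was 4 without empty vector array 3 and 4 with array quality weights, and 5 in 4 other settings.

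Hmgcs1 makes HMG-CoA, the substrate of the committed step to mevalonate. Hmgcs1 (cluster 10412466) stood at 0.040, 0.036 and 0.037 on empty vector arrays 1, 2 and 3 and at -0.078, -0.068 and -0.036 on knockdown arrays 1, 2 and 3. The groups did not overlap, and the empty vector arrays were close together, between 0.036 and 0.040. The change was -0.098 ± 0.039 (SE), or 0.934-fold (95% interval 0.877 to 0.995), with a limma p of 0.0376 and an adjusted p of 0.996. Leaving out 1 array at a time, the change lay between -0.111 and -0.089. In those fits its unadjusted limma p ran from 0.0493 to 0.119 and was under 0.05 only without knockdown array 2. With the replicate block the unadjusted limma p was 0.0793.

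Pmvk and Mvk add the phosphates to mevalonate, and Mvd then removes carbon dioxide to give isopentenyl diphosphate. Pmvk stood at -0.0016, 0.104 and 0.082 with empty vector and at 0.0016, -0.062 and -0.016 with knockdown. This gave 0.942-fold (-0.087 ± 0.047, SE). Its groups overlapped only through empty vector array 1. Mvd stood at -0.054, 0.070 and 0.118 with empty vector and at -0.029, 0.029 and -0.140 with knockdown, giving 0.938-fold (-0.092 ± 0.064, SE). The groups of Mvd overlapped, and the change was -0.045 without knockdown array 3, -0.055 without empty vector array 3 and -0.141 without empty vector array 1. Mvk had -0.035 ± 0.050 (SE), with 0.121 on empty vector array 3 and values between -0.021 and 0.0088 on the other 5. Idi1, the isomerase of isopentenyl diphosphate, and Fdps, which makes farnesyl diphosphate, had -0.017 ± 0.059 and -0.0098 ± 0.045 (SE). Both clusters of Idi1 were lower, at -0.0096 and -0.025.

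Enzymes from squalene to lanosterol had changes around 0. Sqle, the monooxygenase that oxidises squalene and a control point of the pathway, was nearly constant with empty vector at -0.00084, 0.00085 and -0.0020 and stood at -0.033, 0.033 and 0.011 with knockdown. The knockdown arrays thus lay on both sides, and the change was 0.0042 ± 0.041 (SE; 95% interval 0.940-fold to 1.07-fold). Lss, which closes the ring system to give lanosterol, stood at 0.025, -0.027 and -0.029 with empty vector and at -0.0033, 0.0033 and 0.116 with knockdown. Knockdown array 3 alone lay above the empty vector arrays, and the change of 0.049 ± 0.049 (SE) was 0.010 without it. Fdft1, squalene synthase, had -0.0072 ± 0.047 (SE), and its 2 clusters went opposite ways, at -0.034 and 0.020.

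The 7 enzymes from lanosterol to cholesterol ran from -0.050 (Cyp51, the lanosterol demethylase) to 0.0093 (Sc5d), with 6 of 7 below 0 and none at an unadjusted p under 0.05 in limma. Cyp51 was among the most variable genes within a group, from -0.162 on empty vector array 1 to 0.088 on empty vector array 2 and from -0.179 on knockdown array 2 to 0.018 on knockdown array 3. Ebp, a sterol isomerase, stood at -0.0055, 0.0055 and 0.043 with empty vector and at -0.067, -0.059 and 0.033 with knockdown, a change of -0.045 ± 0.046 (SE). Knockdown arrays 1 and 2 lay below all empty vector arrays and knockdown array 3 did not. Hsd17b7, Nsdhl and Msmo1, which remove methyl groups from the sterol ring, had -0.028, -0.0093 and -0.0010, and Dhcr7, which catalyses the final reduction to cholesterol, -0.022.

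The genes that sense and carry sterols had changes slightly above 0, with a median of 0.032 over 3 genes. Insig1, the retention protein whose own gene is a sensitive SREBP target, stood at -0.066, 0.0085 and 0.0035 with empty vector and at 0.0091, -0.015 and -0.0035 with knockdown. The groups overlapped and the change was 0.015 ± 0.042 (SE; 95% interval 0.944-fold to 1.08-fold), or -0.0091 without empty vector array 1. Scap, the SREBP escort, stood at -0.028, -0.018 and 0.028 and at -0.0022, 0.081 and 0.0022, a change of 0.033 ± 0.045 (SE) with overlapping groups. Stard4, a carrier that moves cholesterol between membranes, had 0.032 ± 0.044 (SE). Insig1 and Scap both have a CACGTG in the promoter stretches printed above. Over the 6 genes with that E-box the changes ran from -0.028 to 0.033 with a median of -0.0061, and the 22 genes with a window but no CACGTG had a median of 0.0026.

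**Figure D3:**
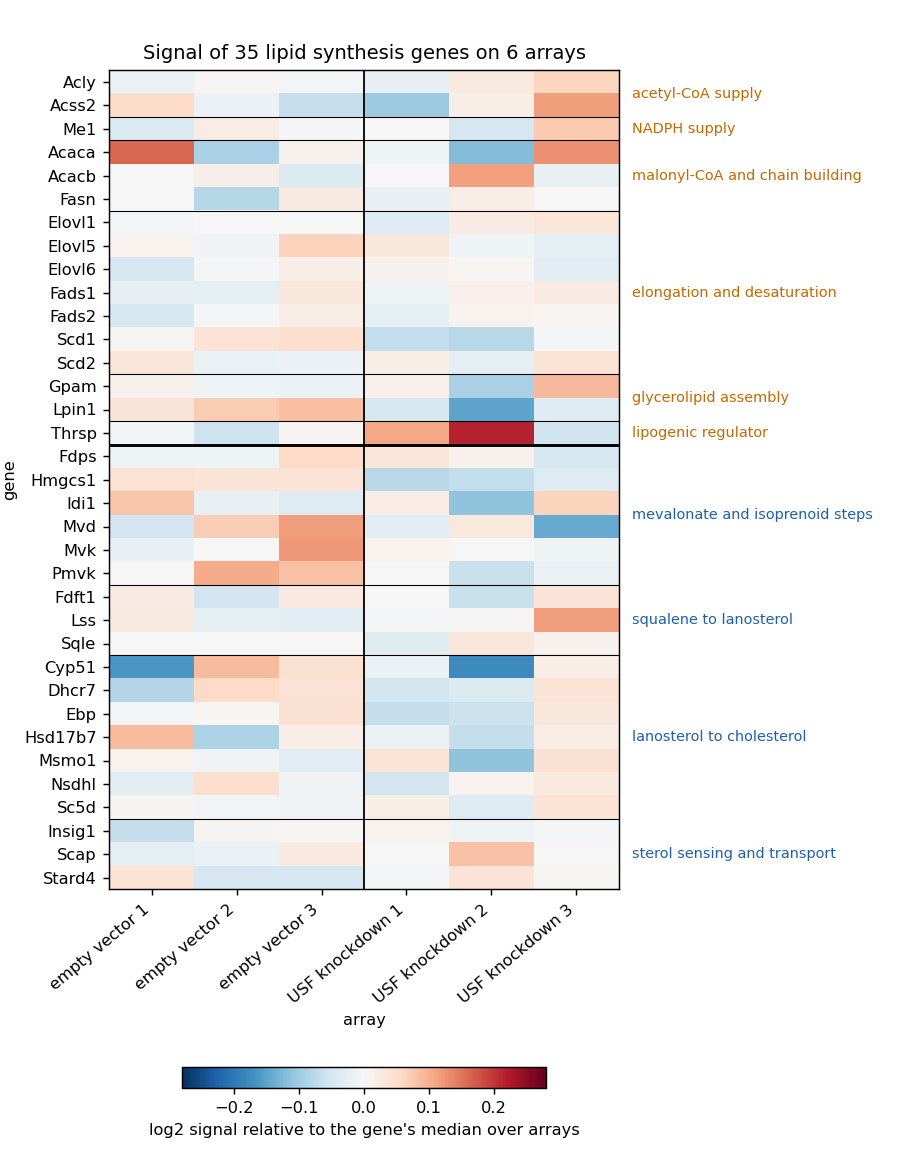
Relative log2 signal (colour, blue below and red above the gene's own median) of 35 lipid synthesis genes in rows, grouped by step with the lipogenic branch above the thick line, on 6 arrays in columns. The strongest colours are single cells, such as Thrsp at 0.215 and Cyp51 at -0.179 on knockdown array 2 and Acaca at 0.162 on empty vector array 1, and no step shows a uniform block across the 3 knockdown arrays.

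Set against each other, the branches had median changes close to 0 and on opposite sides of it. Whether they differed was not tested. The median change was 0.0097 for the lipogenic branch, with 12 of 16 genes above 0, and -0.0098 for the sterol branch, with 6 of 19 above 0, against -0.00066 for all genes and -0.012 for the brighter class. The difference of the medians was 0.020. The same difference taken on single arrays had a standard deviation between replicates of 0.022. That is a spread of single arrays and not the error of a contrast of 3 against 3, so the 2 values cannot be ranked. On knockdown arrays 1, 2 and 3 the lipogenic median was -0.0052, 0.018 and 0.023 against the empty vector mean, and the sterol median was -0.0082, -0.034 and 0.018. The branches lay apart mainly on knockdown array 2, where the brighter class stood at -0.037. Without knockdown array 2 the medians were 0.0091 and -0.0054.

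**Figure D4:**
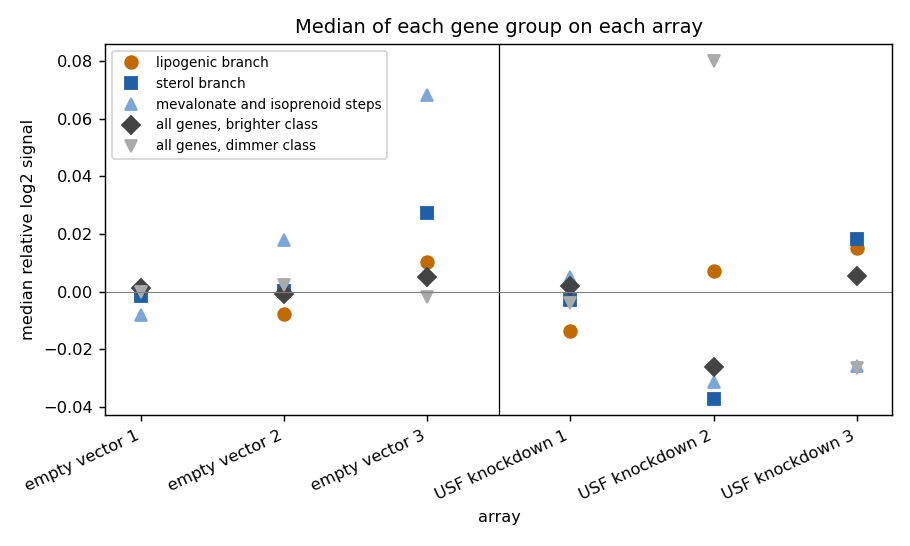
Median relative log2 signal (y axis) of the lipogenic branch, the sterol branch, its mevalonate and isoprenoid steps, and all genes of the brighter and dimmer class on each of the 6 arrays (x axis). On knockdown array 2 the lipogenic median is 0.0073 and the sterol median -0.037, while on the other 5 arrays the branches lie within 0.017 of each other.

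In 25 of 35 genes (71.4%) the 3 knockdown arrays lay on both sides of the empty vector mean, against 67.3% of all genes and 58.8% of the brighter class. This held for 14 of 16 lipogenic genes, 11 of 19 sterol genes (57.9%) and, within the sterol branch, 2 of the 6 of the mevalonate and isoprenoid steps. Of 35 genes, 3 had groups that did not overlap (Lpin1, Scd1 and Hmgcs1, all lower), or 8.57%. Of all genes 10.3% did not overlap in either direction and 5.95% did so lower, and of the brighter class 14.1% and 8.60%, so the members' share lower was close to that of the brighter class. Knockdown array 3 was the highest of the knockdown arrays for 21 of the 35 (60.0%), against 45.5% of the brighter class. The median standard deviation within groups was 0.043 for these genes and 0.052 for the brighter class.

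**Figure D5:**
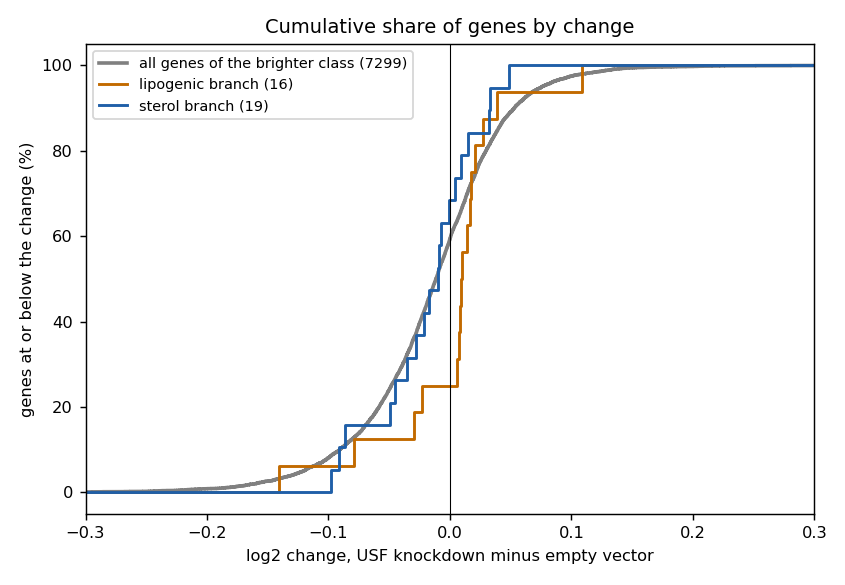
Cumulative percentage of genes (y axis) at or below a given log2 change (x axis, shown from -0.3 to 0.3) for the 16 lipogenic genes, the 19 sterol genes and all 7299 genes of the brighter class. The sterol curve runs close to that of the brighter class, the lipogenic curve has 12 of 16 genes above 0, and both branches stay between -0.141 and 0.109.

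Other genes of lipid metabolism, listed by function and not by how they moved, gave no call in limma after adjustment either. Of 36 related fatty acid and glycerolipid enzymes 31 were measured, and 4 of these had an unadjusted p under 0.05 (12.9%, against 4.25% of all genes), 2 of them higher and 2 lower. Scd3, a further stearoyl-CoA desaturase, stood at -0.052, -0.077 and -0.108 with empty vector and at 0.138, 0.052 and 0.114 with knockdown, or 1.13-fold (limma adjusted p = 0.899). Gpat3, a glycerol phosphate acyltransferase, was 1.08-fold, Dgat1, which completes triglycerides, 0.931-fold and the elongase Elovl7 0.872-fold, each with a limma adjusted p of 0.996. The groups of these 4 genes did not overlap, which their choice by a small p favours. Over the 31 genes, 29.0% did not overlap, against 10.3% of all genes and 14.1% of the brighter class. Scd3, Gpat3 and Elovl7 lay in the dimmer class.

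Of 10 measured of 20 related sterol enzymes and transporters, 0 were at an unadjusted p under 0.05 in limma. Of these 10 genes, 7 were higher and 3 lower, with a median change of 0.032. The changes ran from -0.144 ± 0.068 (SE) for Tm7sf2, a sterol reductase, to 0.128 ± 0.058 (SE) for the transporter gene Abcg1. The 14 measured of 16 control genes included Usf1 and Usf2 themselves, and no other was at an unadjusted p under 0.05. Srebf1 and Srebf2, which encode the SREBP factors, had changes of -0.0035 ± 0.046 and 0.0027 ± 0.045 (SE). Of 17 measured of 18 fatty acid oxidation genes, 3 (17.6%) were at an unadjusted p under 0.05, against 4.25% of all genes and 5.00% of the brighter class. Acadm, a mitochondrial acyl-CoA dehydrogenase, was 0.902-fold and Mlycd, which degrades malonyl-CoA, 0.930-fold. Cpt1a, which admits fatty acids to mitochondria, was 1.07-fold. The oxidation list had a median of -0.032, with -0.129 on knockdown array 2 and 0.018 and -0.039 on knockdown arrays 1 and 3.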

How the data were processed

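The deposited table held 22891 transcript clusters on 6 arrays, with values read here as log2 from how the numbers were rounded. It was centred so that each row's median is 0, and no level is kept. How the authors corrected background and normalized, and the log base, is not given in the sources used here. The single-precision rounding step, found as the unit of which differences between arrays were whole multiples (tolerance 0.05), placed clusters in a brighter (9947) or dimmer class (12889), with 55 unknown. Values under 0.001, written with fewer digits, were left out of this, and chance misplaces some clusters.

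Gene names came from the platform annotation: 18087 clusters had 1 symbol, 1145 several and 3659 none. Clusters of a gene were averaged (4 of the 35 genes had several), giving 16583 genes. Changes are knockdown minus empty vector, estimated with limma 3.58.1 (lmFit, eBayes) under R 4.3.3 (4 residual and 3.79 prior degrees of freedom), with Benjamini-Hochberg adjustment over all genes. Promoters were searched and figures drawn with Python 3.11.15 and matplotlib 3.10.9. In simulations of this comparison with 16583 genes, 200 of them changed, the fit recovered 34.1%, 77.5% and 98.0% of changes of 0.25, 0.5 and 1. With 12 changed genes it recovered 0%, 40.0% and 81.2%. The changes of the lipid genes, between -0.141 and 0.109, were all smaller in size than 0.25. Recovery of changes that small was not simulated, so these shares do not describe the power for the lipid genes. Precision is limited by how few arrays there are.

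The members, lists and alternatives were chosen with earlier results of these data known. Values on every array are given for Fasn, Acaca, Hmgcs1, Sqle, Insig1, Scap and the 5 genes of each branch with the smallest p, and for a few others where groups or arrays stood apart. Of the related lists, up to 4 genes with an unadjusted p under 0.05 are named. Tm7sf2, Abcg1, Srebf1 and Srebf2 were added after their values were seen. Alternatives were quantile normalization, centring of arrays, the replicate number as a block, array quality weights, robust variance, the cluster with the largest spread, the brighter class alone, leaving out each array and, chosen after seeing the data, centring within brightness class.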

Additional observations from a re-analysis of the deposited data

How the results depend on the processing

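Over 14 alternatives, none of the 35 genes passed an adjusted p of 0.05 except with array quality weights. That fit gave weights of 33.0, 0.136 and 0.441 to knockdown arrays 1, 2 and 3, so its knockdown mean was in effect that of 1 array. It called 1111 genes, 2 of the 35 (Hmgcs1 at -0.115 and Lpin1 at -0.115), Usf1 at -0.62 and Usf2 at -0.46, and had 7 of the 35 (20%) at an unadjusted p under 0.05, against 26.3% of all genes, a lipogenic median of -0.0080, and turned the signs of Acly (-0.017), Fasn (-0.0020), Scap (-0.0019) and Sqle (-0.032). Quantile normalization turned Sqle to -0.0029. The changes of Hmgcs1, Lpin1, Scd1, Pmvk, Mvd, Ebp, Lss and Thrsp kept their sign in every fit that held them (Thrsp is not in the brighter class alone).

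The replicate numbers did not pair the arrays: correlations of deviations between arrays with the same number were -0.023, 0.045 and 0.035. With the replicate block 0 genes passed over all genes and 1 of the 35, Lpin1, was at an unadjusted p under 0.05. Leaving out 1 array at a time, 0 to 1 genes passed over all genes, 0 of the 35 passed, and 0 to 2 of the 35 were at an unadjusted p under 0.05, falling to 0 when empty vector array 2 or 3 was dropped and to 1 when knockdown array 1 was. The lipogenic median ran from -0.0046 (without knockdown array 3) to 0.020, the sterol median from -0.029 to -0.00062, and their difference from 0.0077 to 0.045 (without knockdown array 1). Signs turned for Acaca (-0.095 to 0.037), Acacb (-0.0034 to 0.065), Fasn (-0.014 to 0.039), Insig1 (-0.0091 to 0.028) and Sqle (-0.010 to 0.023), all of them changes smaller than their standard errors. The cause of these shifts was not tested.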
